A study of Mus musculus with 8 samples.

Results

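The promoters of LSK cells, the sorted Lin-, Sca1+ and cKit+ bone marrow fraction that holds the haematopoietic stem cells and multipotent progenitors, were examined as accessible regions. All peaks that the annotation places at a promoter, which is the stretch from 1 kb upstream to 200 bp downstream of a transcription start site, were taken from the MACS2 peak lists of 4 Omni-ATAC-seq libraries. The 38412 promoter peaks comprised 9803 and 13038 in WT replicates 1 and 2, compared with 7766 and 7805 in Dido1∆E16 replicates 1 and 2. Overlapping peaks were merged into 13163 promoter regions, of 60531 regions that the peaks of every annotation form together. A library was said to hold a region when at least 1 of its own promoter peaks lay in it.

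The study asked how loss of Dido3, the largest protein of the Dido1 locus, affects chromatin and transcription in early haematopoiesis. Dido1∆E16 mice had the genotype Dido1 flE16/∆E16; R26R-EYFP; iCre Vav1, so that the floxed 3′-terminal exon 16 was removed in blood cells, where the Vav1 promoter drives the recombinase. The controls, called WT here, were littermates that carried the same Cre transgene, the EYFP reporter and 1 floxed allele beside an intact one (Dido1 flE16/+; R26R-EYFP; iCre Vav1). All were adult C57BL/6 mice, sex- and age-matched according to the methods, with 2 biological replicates per genotype for LSK accessibility and 2 for RNA of sorted pre-B cells, each of the latter from a pool of mice.

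Promoters are the sites where RNA polymerase II and its general factors assemble. Many mammalian promoters lie in CpG islands, which are kept free of DNA methylation and poor in nucleosomes in most cell types, while promoters of tissue-restricted genes more often have few CpG dinucleotides and open only where they are used. In ATAC-seq the Tn5 transposase inserts adapters into DNA that nucleosomes leave exposed, so an active promoter gives a broad peak over its start site. The PHD finger of the DIDO proteins binds trimethylated lysine 4 of histone H3, a mark of such promoters.

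The 4 libraries differed in depth and in other ways that genotype does not give. In the headers of the lists of differential regions, 10249256 tags stood for WT replicate 1 and 52050898 for WT replicate 2, against 22533077 for Dido1∆E16 replicate 1 and 44633938 for Dido1∆E16 replicate 2. Dido1∆E16 replicate 2 thus had fewer promoter peaks than WT replicate 1 from more tags, and no read counts per peak were used here. Peaks at the Y-linked promoters of Ddx3y, Eif2s3y and Uty were present in WT replicate 1 (scores 64, 70 and 71) and in Dido1∆E16 replicate 2 (40, 46 and 55), and in neither of the other libraries. At Xist, the RNA of the inactive X chromosome, WT replicate 2 had 3 peaks and Dido1∆E16 replicate 1 had 1, while the libraries with Y-linked peaks had 0. Each genotype therefore held 1 library of each kind, and the replicate numbers cross the kinds. The labels do not give the sex of the mice. A legend of the study describes the mice of its accessibility and RNA tracks as male and of different ages, whereas the methods call the animals matched by age, and the Xist peaks of WT replicate 2 and Dido1∆E16 replicate 1 go against male mice.

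Promoters that stand for the main patterns are shown as the 250 bases before the annotated start site, read 5′ to 3′ on the strand of the gene from GRCm38. Evi5l, Sel1l and Osbp were among the 10 promoters with the highest scores in all 4 libraries, Mlf1, Tph2 and Sumf2 had strong WT peaks but lacked any Dido1∆E16 MACS2 peak, and Cpe had the lowest Dido1∆E16 score relative to WT. Capitals mark matches, on either strand and with overlaps kept, to 10 short motifs, namely ETS (CCGGAAG), NRF1 (GCGCATGCG), NFY (CCAAT), SP1/KLF (GGGCGG), the TATA box (TATAAA), YY1 (AAGATGGC), CRE (TGACGTCA), RUNX (TGTGGT), the GATA factor motif (AGATAA) and the E-box CAGCTG.
Evi5l (chr8:4166317-4166566, plus strand): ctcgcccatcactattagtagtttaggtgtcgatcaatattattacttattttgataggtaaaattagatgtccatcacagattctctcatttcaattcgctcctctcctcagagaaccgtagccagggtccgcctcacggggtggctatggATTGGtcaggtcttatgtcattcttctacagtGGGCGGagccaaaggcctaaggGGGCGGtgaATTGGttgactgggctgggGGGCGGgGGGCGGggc
Sel1l (chr12:91849158-91849407, minus strand): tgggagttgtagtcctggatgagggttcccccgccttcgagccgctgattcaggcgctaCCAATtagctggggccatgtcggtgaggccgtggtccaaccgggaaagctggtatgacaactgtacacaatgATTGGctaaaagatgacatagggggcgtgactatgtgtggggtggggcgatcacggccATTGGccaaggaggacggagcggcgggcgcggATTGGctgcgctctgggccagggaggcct
Osbp (chr19:11965594-11965843, plus strand): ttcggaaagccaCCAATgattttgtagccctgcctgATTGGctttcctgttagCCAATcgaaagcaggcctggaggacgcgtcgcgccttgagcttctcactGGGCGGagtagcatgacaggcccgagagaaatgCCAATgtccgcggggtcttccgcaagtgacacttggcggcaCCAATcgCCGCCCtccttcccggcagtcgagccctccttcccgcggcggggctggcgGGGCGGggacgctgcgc
Mlf1 (chr3:67373847-67374096, plus strand): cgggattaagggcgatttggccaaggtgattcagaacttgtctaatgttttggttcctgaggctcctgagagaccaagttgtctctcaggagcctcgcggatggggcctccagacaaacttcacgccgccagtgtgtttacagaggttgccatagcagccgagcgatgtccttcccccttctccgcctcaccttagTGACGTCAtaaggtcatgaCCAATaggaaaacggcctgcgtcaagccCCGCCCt
Tph2 (chr10:115185023-115185272, minus strand): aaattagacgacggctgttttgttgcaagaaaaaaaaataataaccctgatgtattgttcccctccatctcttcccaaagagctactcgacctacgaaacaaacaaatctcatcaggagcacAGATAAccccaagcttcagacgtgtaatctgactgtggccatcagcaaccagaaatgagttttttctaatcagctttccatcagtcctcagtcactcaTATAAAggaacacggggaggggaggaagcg
Sumf2 (chr5:129846740-129846989, plus strand): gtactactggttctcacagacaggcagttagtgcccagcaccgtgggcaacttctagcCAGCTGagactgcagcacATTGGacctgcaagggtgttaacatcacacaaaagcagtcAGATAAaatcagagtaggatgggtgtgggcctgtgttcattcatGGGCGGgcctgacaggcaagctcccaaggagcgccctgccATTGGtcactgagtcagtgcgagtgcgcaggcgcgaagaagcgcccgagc
Cpe (chr8:64693110-64693359, minus strand): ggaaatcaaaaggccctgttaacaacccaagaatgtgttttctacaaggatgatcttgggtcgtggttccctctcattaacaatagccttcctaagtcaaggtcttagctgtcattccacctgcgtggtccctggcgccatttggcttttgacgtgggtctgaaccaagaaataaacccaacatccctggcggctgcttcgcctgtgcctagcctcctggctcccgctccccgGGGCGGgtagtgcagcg

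Evi5l held 2 NFY and 4 SP1/KLF matches, Sel1l 4 NFY matches, and Osbp 5 NFY and 3 SP1/KLF matches. Mlf1 had 1 CRE, 1 NFY and 1 SP1/KLF match, and Sumf2 had 2 NFY, 1 SP1/KLF, 1 GATA and 1 E-box match. Tph2 had 1 TATA box and 1 GATA match, and Cpe had 1 SP1/KLF match. Tph2 was the only one of these 7 stretches with a TATA box, and it had the fewest CpG dinucleotides (7, against 23 in Osbp). A match describes the letters and does not show that a factor was bound. Among 21263 windows of RefSeq protein-coding starts, from 250 bases before to 50 after the start, 38.2% held an NFY match, 46.2% an SP1/KLF match, 12.6% a TATA box and 2.23% a CRE match.

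Of the 13163 promoter regions, 6441 (48.9%) were held by all 4 libraries. A further 1686 (12.8%) were held by both WT libraries and 1 Dido1∆E16 library, divided almost evenly into 853 with Dido1∆E16 replicate 1 and 833 with replicate 2. Both WT libraries and neither Dido1∆E16 library held 1454 regions (11%), and a single WT library held 2901 (22%), of which 2816 came from WT replicate 2, the most deeply sequenced library. In the other direction, 2 regions were held by both Dido1∆E16 libraries and no WT library, and 46 by 1 Dido1∆E16 library alone. The last 633 regions were shared by 1 WT library with 1 or both Dido1∆E16 libraries. The presence patterns of the promoter regions show these groups side by side.

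**Figure D1:**
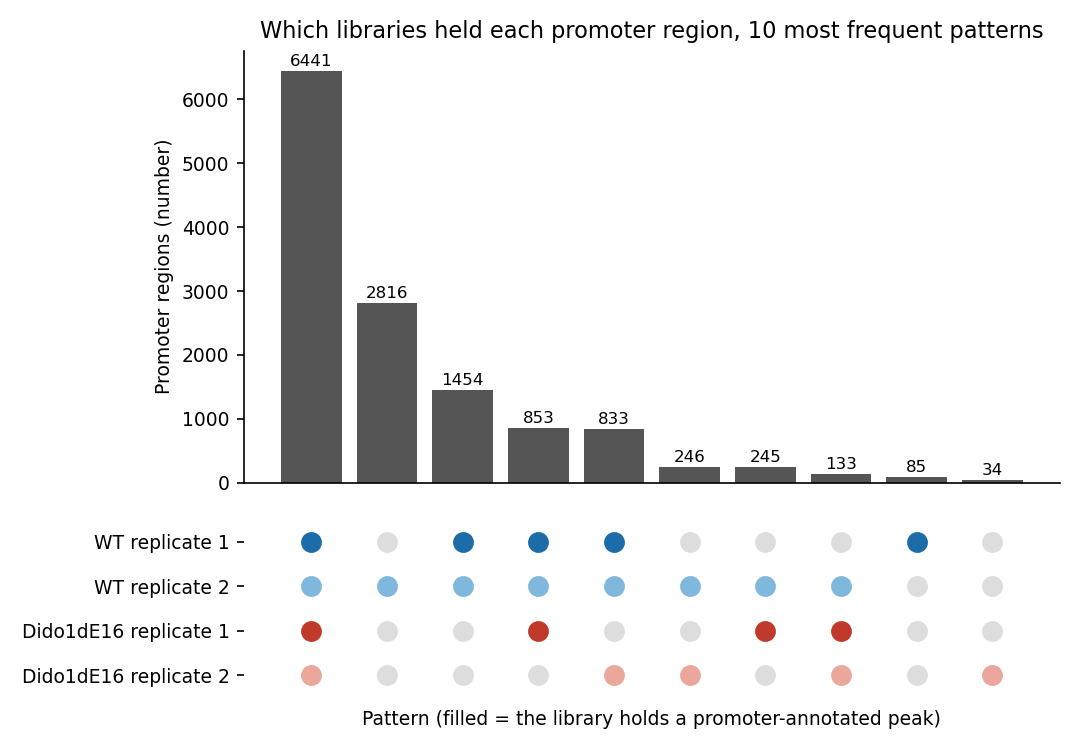
Number of promoter regions (vertical axis) for the 10 most frequent patterns of presence over the 4 libraries, where a filled circle means that the library named at the left has a promoter peak in the region. Regions of all 4 libraries number 6441, those of WT replicate 2 alone 2816 and those of both WT libraries only 1454.

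Peaks in shared regions were wider within the same library. In WT replicate 2 the median peak width was 946 bp in the regions of all 4 libraries, 748 bp in those of both WT libraries and 1 Dido1∆E16 library, 614 bp in those of both WT libraries only and 417 bp in those of 1 WT library only. In WT replicate 1 the first 3 of these classes had medians of 648, 437 and 345 bp. The annotated start site lay inside 90.2% of all merged regions. Across the 6441 regions of all 4 libraries, Spearman's correlation of the scores was 0.825 for the pair of WT libraries and 0.682 for the Dido1∆E16 pair. It ranged from 0.714 to 0.755 between libraries of different genotype, so the Dido1∆E16 replicates resembled each other less than either resembled the WT libraries. These coefficients describe regions that share libraries and depth.

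Single libraries were compared next. The number of promoter peaks was 11420 ± 2287 (SD, n = 2 libraries) in WT, compared with 7786 ± 27.6 (SD, n = 2 libraries) in Dido1∆E16 cells, and both Dido1∆E16 libraries lay below both WT libraries (exact two-sided permutation test, p = 0.333, the lowest that a design with 2 libraries a side can reach). Median peak width was 557 and 779 bp in the WT libraries, versus 504 and 517 bp in the Dido1∆E16 libraries. The groups did not overlap (difference -158 bp, exact permutation p = 0.333). The difference was -46.5 bp without WT replicate 2 and -268 bp without WT replicate 1.

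The median MACS2 score of promoter peaks was 48 and 89 in WT replicates 1 and 2. It was 50 and 37 in Dido1∆E16 replicates 1 and 2. The sources used here do not give the scale of this score. The score groups overlapped (exact permutation p = 0.667). In each library the promoter peaks outscored the rest, whose median scores were 30 and 42 in WT and 31 and 25 in Dido1∆E16 cells, and were wider than the other peaks, with medians between 307 and 364 bp. Of the best-scoring 10% of peaks, promoters made up 74.9% and 66.6% in the WT libraries, versus 80.6% and 71.4% in the Dido1∆E16 libraries. A HOMER peak of the same library overlapped 91.5% and 97.2% of the WT promoter peaks and 95.2% and 95.8% of the Dido1∆E16 ones.

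Over the 6441 regions of all 4 libraries, the point covered most often lay just upstream of the start site in each library. Coverage of the regions was highest 50 bp upstream of the start in WT replicate 1 (93.8%) and 25 bp upstream in the other libraries (98.7% in WT replicate 2, 91.6% and 90.1% in Dido1∆E16 replicates 1 and 2). At 500 bp downstream, peaks still covered 17.5% and 44.2% of the regions in WT replicates 1 and 2, against 10.4% and 14.9% in Dido1∆E16 replicates 1 and 2. At 500 bp upstream the shares were 21.9% and 41.0% against 16.2% and 17.5%. WT replicate 2 stood apart from the other 3 libraries, and WT replicate 1 lay nearer to the Dido1∆E16 libraries than to it.

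**Figure D2:**
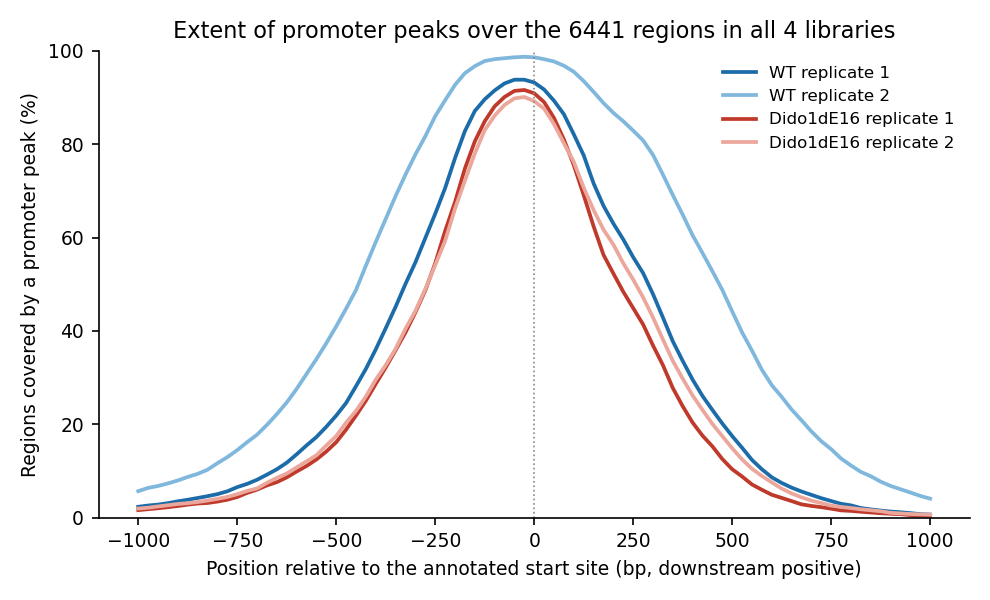
Percent of the 6441 promoter regions of all 4 libraries that a promoter peak covers (vertical axis) against the distance from the annotated start site in bp (horizontal axis, downstream positive), 1 line per library. The curve of WT replicate 2 is the broadest, with 44.2% of the regions covered at 500 bp downstream, and the other 3 libraries lie between 10.4% and 17.5% there.

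Whether a WT promoter peak had a Dido1∆E16 counterpart varied with its strength in WT. Of the 9581 promoter regions held by both WT libraries, 1454 (15.2%) were held by neither Dido1∆E16 library, beside 43.1% (11112 of 25755) of the regions of every annotation that both WT libraries held. When the regions were ranked by the mean percentile of their score within the WT libraries, 82.5% of those below the 20th percentile had no Dido1∆E16 promoter peak. The share was 27.8% between the 40th and 60th percentiles and 0.240% (6 of 2496) above the 90th. It also varied with WT width, from 79.0% under 300 bp to 3.80% at 900 bp and above.

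Counted over merged peaks of any annotation, 14.9% of the promoter regions of both WT libraries (1482 of 9938) had no Dido1∆E16 peak. For first introns, later introns and intergenic regions the shares were 60.7%, 66.3% and 59.6%. Promoters had higher WT scores than these regions, with a median percentile of 69.4 in WT replicate 1 against 43 to 45.1, so classes of equal WT score were compared. Between the 40th and 60th percentiles, 26.3% of the promoters, 74.4% of the introns and 72.5% of the intergenic regions had no Dido1∆E16 peak. Between the 80th and 90th percentiles the shares were 1.84%, 21% and 21.6%. The 2 Dido1∆E16 libraries gave the same order separately, since between the 40th and 60th percentiles they held 55.3% and 55.4% of the promoters against 11.6% and 18.9% of the introns. These shares describe peak sets and were not tested.

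**Figure D3:**
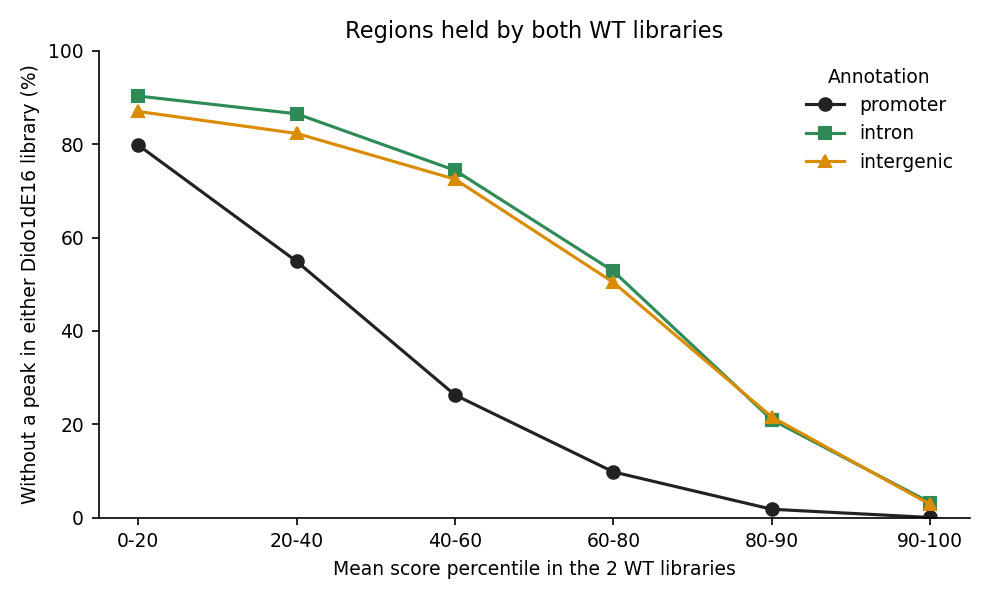
Percent of the regions held by both WT libraries that have no peak in either Dido1∆E16 library (vertical axis) by the mean percentile of their score in the WT libraries (horizontal axis), for promoters, introns and intergenic regions. In each class the promoters lie lowest, at 26.3% between the 40th and 60th percentiles against 74.4% for introns and 72.5% for intergenic regions.

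The counts also varied with the length of the peak lists. When each list was cut to its 13208 best-scoring peaks, as many as the shortest list holds, 6459 and 6613 promoter peaks remained in WT replicates 1 and 2, compared with 7766 and 6942 in Dido1∆E16 replicates 1 and 2, so the direction of the difference turned. Both WT libraries and neither Dido1∆E16 library then held 170 regions (3.03% of 5617), both Dido1∆E16 libraries and neither WT library held 406 (6.64% of 6112), and all 4 held 4945. Without WT replicate 1, WT replicate 2 alone gave 4270 regions without a Dido1∆E16 peak.

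The 1454 promoter regions of both WT libraries only were followed in the other peak lists. In 135 of them a Dido1∆E16 library had a MACS2 peak that was annotated to an exon, intron or other feature instead of a promoter. HOMER called a peak in at least 1 Dido1∆E16 library in 762 (52.4%), and more often in replicate 2 (44.6%) than in replicate 1 (23.4%). In 678 regions (46.6%) neither program called a Dido1∆E16 peak of any annotation, which is 7.08% of the 9581 regions of both WT libraries. The median score percentile of the 1454 regions was 30.9 in WT replicate 1 and 56.3 in WT replicate 2, against 81.6 and 91.6 for the regions of all 4 libraries.

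The promoter regions differed in base composition by class, a property that the peak lists do not hold. In the central 300 bases the median ratio of observed to expected CpG was 0.851 in the regions of all 4 libraries, 0.808 with both WT libraries and 1 Dido1∆E16 library, 0.694 with both WT libraries only and 0.638 with 1 WT library only. Median GC content was 66.0%, 65.3%, 62.7% and 61.0%. For comparison, RefSeq protein-coding starts without a promoter peak in any library had a median CpG ratio of 0.232 (9945 windows), which was also the median of the peaks of WT replicate 2 outside promoters. A ratio above 0.6, a usual mark of CpG islands, was reached by 87.4% of the regions of all 4 libraries and by 60.7% of those of both WT libraries only. Among regions between the 40th and 60th WT score percentiles the medians were 0.869 and 0.735, so the order of these classes was the same at similar WT score. In 5 equal groups by CpG ratio, from the lowest to the highest, 35.0%, 17.4%, 11.4%, 10.4% and 9.24% of the regions of both WT libraries had no Dido1∆E16 promoter peak.

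**Figure D4:**
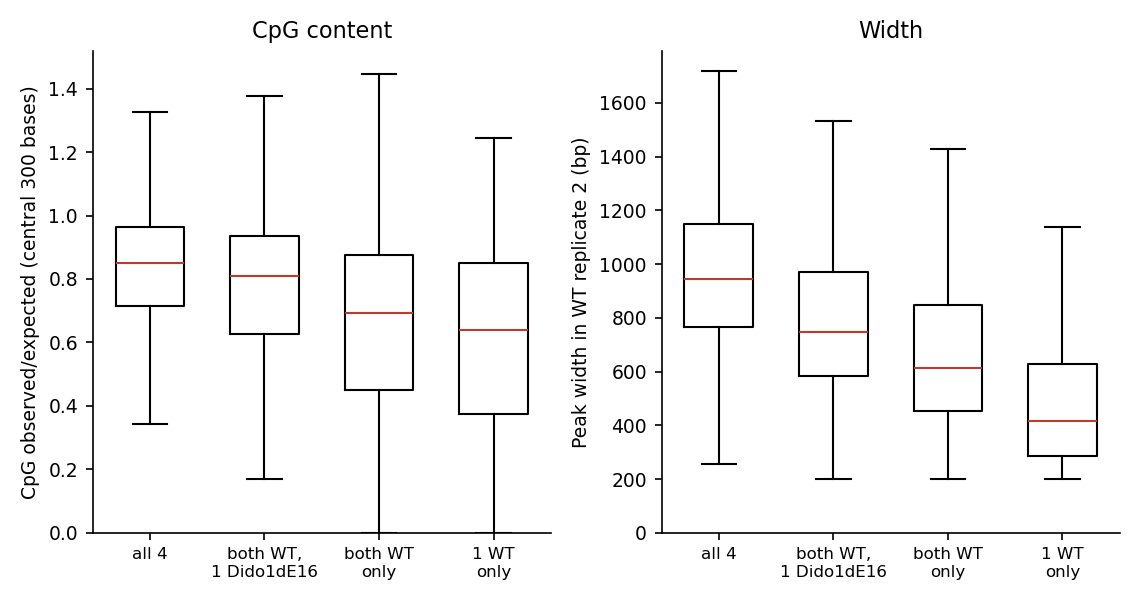
Ratio of observed to expected CpG in the central 300 bases (left) and width in bp of the WT replicate 2 peak (right) in the promoter regions by class of presence. Boxes span the quartiles with the median as a red line, and whiskers reach the last value within 1.5 interquartile ranges. Medians descend from 0.851 to 0.638 for CpG and from 946 to 417 bp for width.

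Motif content varied along the same classes. ETS matches lay in 19.3% of the regions of all 4 libraries and 9.49% of those of both WT libraries only, NRF1 matches in 3.34% and 1.10%, YY1 matches in 5.39% and 2.61%, SP1/KLF matches in 70.0% and 53.9%, CRE matches in 3.29% and 1.10%, and NFY matches in 35.0% and 23.5%. Among regions between the 40th and 60th WT score percentiles the NFY shares were 22.8% and 24.0%, so that order turned at similar WT score, while ETS matches lay in 18.6% and 11.1%. RUNX matches were more frequent in the regions of both WT libraries only (13.1%, against 10.2% in all 4), as were GATA (5.23% and 2.93%), TATA box (5.16% and 3.04%) and E-box matches (19.0% and 14.6%). In RefSeq protein-coding windows the shares were 11.6% for ETS, 2.35% for NRF1, 3.05% for YY1, 15% for RUNX, 9.65% for GATA and 15.6% for the E-box. Regions in which 2 genes start in opposite directions made up 9.13% of the regions of all 4 libraries and 1.86% of those of both WT libraries only. Both starts had to lie inside the merged region. Its median width was 971 bp in the former class and 643 bp in the latter, and classes of equal width were not compared.

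The 10 promoters with the highest mean score percentile in all 4 libraries belonged to Evi5l, Zfp317, Sel1l, Eif2ak3, Stt3a, Osbp, M6pr, AW549877, Fancb and Kbtbd8. SEL1L works in degradation of proteins of the endoplasmic reticulum, EIF2AK3 (PERK) is its stress kinase, STT3A is a catalytic subunit of oligosaccharyltransferase, OSBP transfers sterols and M6PR carries lysosomal enzymes. At Evi5l the scores were 383 and 590 in WT replicates 1 and 2, compared with 324 and 302 in Dido1∆E16 replicates 1 and 2. At Zfp317, a zinc finger gene, they were 383 and 594 in WT and 255 and 294 in Dido1∆E16 cells. At Sel1l they were 372 and 478 in WT and 326 and 231 in Dido1∆E16 cells. Both Dido1∆E16 scores lay below both WT scores in 9 of the 10 promoters, Kbtbd8 (261 and 391 in WT, compared with 235 and 307 in Dido1∆E16 cells) being the exception. This was so at 56.5% of all promoter regions held by the 4 libraries (3642 of 6441), in which the unnormalized Dido1∆E16 scores were lower, and both Dido1∆E16 scores lay above both WT scores at 1. All 10 regions held the start site, and a peak covered 438 to 899 bp of each in the Dido1∆E16 libraries.

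Among the regions of both WT libraries only, the 10 with the highest lower WT percentile were named by Leng1, Relb, Mlf1, Arhgap24, Tph2, Reep6, Chgb, Sumf2, Lrrc47 and Gm15708. In 6 of them a Dido1∆E16 library had a MACS2 peak of another annotation. Leng1 (158 and 261 in WT) had Dido1∆E16 peaks of score 180 and 88 annotated to a 5′-UTR of Tmc4. Relb (105 and 208 in WT), which encodes an NF-kB subunit, had Dido1∆E16 peaks of score 122 and 67 placed in its intron, and these began 498 and 497 bp past the start. Chgb, Reep6 and Gm15708 likewise had such peaks in both Dido1∆E16 libraries and Arhgap24 in replicate 2. No MACS2 peak of any annotation was found in Dido1∆E16 libraries at the remaining 4.

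Mlf1, which encodes a myeloid leukaemia factor, had WT scores of 98 and 251. Tph2, which encodes the neuronal tryptophan hydroxylase, had WT scores of 75 and 188, and Lrrc47 had 71 and 112. Sumf2, a formylglycine-generating enzyme paralog of the endoplasmic reticulum, had 72 and 163 in WT. At Mlf1 and Lrrc47 HOMER called a peak in both Dido1∆E16 libraries and at Tph2 in replicate 2, whereas at Sumf2 it called none in either. The promoter of Sumf2 (chr5:129846699-129847527) was thus the strongest by this ranking with no Dido1∆E16 peak by either program.

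The 2 regions of both Dido1∆E16 libraries only also carried WT peaks of another annotation. The region next to Rbm15b, an RNA-binding protein gene, had scores of 44 and 21 in Dido1∆E16 replicates 1 and 2, and overlapped WT peaks of score 20 and 145 placed in the 3′-UTR of Manf. The region of Nfkbid, which encodes a nuclear IkB protein, had scores of 26 and 20 in Dido1∆E16 cells and overlapped a WT replicate 2 peak of score 76 in an intron. Counted over peaks of any annotation, the number of such regions was 0.

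Dido1 itself had 2 promoter regions, both held by all 4 libraries. The downstream one (chr2:180701691-180702633) had scores of 43 and 98 in WT replicates 1 and 2, compared with 18 and 39 in Dido1∆E16 replicates 1 and 2. The upstream one (chr2:180709677-180710407) had 74 and 122 in WT and 26 and 37 in Dido1∆E16 cells. Both Dido1∆E16 scores lay below both WT scores in each region before normalization, as at 56.5% of the promoter regions of all 4 libraries. The deleted exon lies at the other end of the gene, so these promoters do not check the genotype labels.

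Promoter peaks were then read by gene list. Of 21887 RefSeq protein-coding genes, 31.2% had a promoter peak in all 4 libraries, 5.90% in both WT libraries only and 42.2% in none. Per library, 45.1% and 57.2% of the genes had one in WT replicates 1 and 2, compared with 37.0% and 36.8% in Dido1∆E16 replicates 1 and 2. Genes used in every cell were covered most. Of 31 proteasome subunit genes, 26 had a peak in all 4 libraries and 0 in both WT libraries only, and of 79 cytosolic ribosomal protein genes, 56 had a peak in all 4 and 4 in both WT libraries only, among them Rps4x, Rpl8 and Rpl19, where HOMER called a peak in Dido1∆E16 replicate 2. Rps29 had scores of 105 and 257 in WT, compared with 196 and 97 in Dido1∆E16 cells. Psma6 had 125 and 196 in WT, compared with 109 and 84 in Dido1∆E16 cells. The genotypes thus overlapped at Rps29 and did not at Psma6. Before normalization, both Dido1∆E16 scores lay below both WT scores at 56.5% of the promoter regions of all 4 libraries. At the other end were receptors of sensory neurons. A promoter peak was found in none of the libraries for 1094 of 1110 olfactory receptor genes, 354 of 355 vomeronasal receptor genes and 52 of 53 keratin genes.

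The labelled cell type was checked by lineage genes, in bulk libraries where fewer open cells and less open chromatin per cell cannot be told apart. Among the 14 surface receptor genes of stem and progenitor cells, Kit, Flt3, Cd34 and Itga4 had a promoter peak in all 4 libraries and Ly6a (Sca-1), Procr and Thy1 in none. The scores at Kit, the stem cell factor receptor that defines the sort, were 28 and 102 in WT replicates 1 and 2, compared with 50 and 17 in Dido1∆E16 replicates 1 and 2. Those at Flt3, the receptor of multipotent progenitors, were 67 and 163 in WT and 48 and 38 in Dido1∆E16 cells. The Kit groups overlapped. The Flt3 groups did not, with both Dido1∆E16 scores below both WT scores, as at 56.5% of the promoter regions of all 4 libraries. No promoter peak in any library was found at Cd79a and Pax5 of the B lineage, at Cd3e, Cd3d, Cd3g, Cd4 and Cd8a of T cells, at Mpo, Elane, S100a8 and S100a9 of granulocytes, or at any of 12 genes of non-blood tissues such as Alb and Krt5. Other lineage genes had a MACS2 promoter peak in WT replicate 2 alone. Among them were Cd79b (18), Blk (12), Blnk (66) and Rag1 (26) of the B lineage and Cd2 (21), Zap70 (22) and Bcl11b (62) of T cells. Of myeloid cells there were Lyz2 (57), Ltf (15), Itgam (16) and Fcgr3 (19). HOMER also called a peak in Dido1∆E16 replicate 1 at Blnk and Cd2. Ms4a1 had a MACS2 promoter peak in Dido1∆E16 replicate 1 alone (24), where WT replicate 2 had a MACS2 peak of another annotation and a HOMER peak.

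Of 20 transcription factor genes of stem cells, 6, among them Lyl1, Meis1, Etv6, Zfpm1 and Ikzf1, had a promoter peak in all 4 libraries (6 of 20, against 31.2% of all genes), and Runx1 and Hhex in both WT libraries only (2 of 20, against 5.90%). Per library the count was 10 and 17 in WT replicates 1 and 2, compared with 7 and 6 in Dido1∆E16 replicates 1 and 2. Tal1, Erg and Myb had a MACS2 promoter peak in WT replicate 2 alone (48, 37 and 50), although HOMER called a peak in all 4 libraries at Tal1 and in Dido1∆E16 replicate 2 at Myb. At Meis1, a homeodomain partner of HOX proteins, the scores were 76 and 102 in WT and 32 and 42 in Dido1∆E16 cells. Both Dido1∆E16 scores thus lay below both WT scores, as at 56.5% of the promoter regions of all 4 libraries. Runx1, the factor needed for definitive haematopoiesis, had 2 regions with WT scores of 14 and 39 in the first and 47 and 66 in the second. HOMER called a peak in Dido1∆E16 replicate 2 in both Runx1 regions and in replicate 1 in neither, and at Hhex in both Dido1∆E16 libraries.

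Of 21 B lineage genes, Tcf3 and Bach2 had one in all 4 libraries, Foxo1 and Il7r in both WT libraries only and 9 in none (42.9%, against 42.2% of all genes). Il7r, the receptor chain for the cytokine that sustains B cell precursors, had WT scores of 49 and 154 and no peak of either program in Dido1∆E16 libraries. Foxo1, which acts on Il7r and the recombinase genes, had WT scores of 35 and 57 and a HOMER peak in Dido1∆E16 replicate 1. Ebf1, which commits cells to the B lineage, had MACS2 peaks in WT replicate 2 (147) and Dido1∆E16 replicate 1 (47), and HOMER peaks in all 4 libraries. At Tcf3, which encodes the E2A proteins, the scores were 51 and 137 in WT and 59 and 22 in Dido1∆E16 cells, and the groups overlapped.

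In the T and NK list, Gata3 alone of 18 genes had a promoter peak in all 4 libraries and 13 genes had none (72.2%). Of 21 myeloid genes, Cebpa and Spi1 had a peak in all 4, Csf3r in both WT libraries only (HOMER called it in Dido1∆E16 replicate 2 too), and 10 had none. Cebpa, a factor of granulocyte precursors, had scores of 49 and 104 in WT and 39 and 67 in Dido1∆E16 cells, and Spi1, which encodes PU.1, had 57 and 72 in WT and 22 and 37 in Dido1∆E16 cells. Of 16 erythroid and megakaryocyte genes, Itga2b, Nfe2, Tfrc and Car2 had a peak in all 4 libraries and 8 had none. Itga2b, the CD41 integrin of megakaryocytes and early progenitors, had scores of 65 and 134 in WT, compared with 29 and 21 in Dido1∆E16 cells. These did not overlap, and the Dido1∆E16 scores were lower in this way at 56.5% of the promoter regions of all 4 libraries. Tfrc, the transferrin receptor, had 27 and 98 in WT, compared with 67 and 35 in Dido1∆E16 cells, and these overlapped.

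Of the 12 genes for PRC2 subunits, the complex that methylates lysine 27 of histone H3, 8 had a promoter peak in all 4 libraries, among them Ezh2 (76 and 149 in WT, 88 and 65 in Dido1∆E16 cells). Epop had weak peaks in both WT libraries only (17 and 23) and no Dido1∆E16 HOMER peak. Of 38 developmental transcription factor genes, many of which are known Polycomb targets, 30 had no promoter peak in any library, 1 (Isl1) had one in all 4, and Pax9, Sox9 and Foxa1 (7.89%, against 5.90% of all genes) had one in both WT libraries only. HOMER called a peak in both Dido1∆E16 libraries at Pax9, in replicate 2 at Foxa1 and in neither at Sox9. Of 20 genes of the Hoxa and Hoxb clusters, 18 had none.

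Of 20 targets of p53, 13 had a promoter peak in all 4 libraries and Fas, a death receptor, in both WT libraries only (30 and 96, with a HOMER peak in Dido1∆E16 replicate 2). Mdm2, the ubiquitin ligase of p53, had scores of 86 and 159 in WT, compared with 48 and 52 in Dido1∆E16 cells, and Ccng1 had 159 and 283 in WT, compared with 118 and 117 in Dido1∆E16 cells. Interferon-stimulated genes numbered 18 in the annotation, and 8 had a peak in all 4 libraries, while Ifit3, Ifi44 and Ddx58 (16.7%, against 5.90% of all genes) had one in both WT libraries only. HOMER called no Dido1∆E16 peak at these 3. Their scores in WT replicate 1 were between 10 and 19, near the lowest score in the files. Mx1 and Mx2, which are not among the protein-coding genes of the annotation used, also had promoter peaks. Mx1 had scores of 32 and 105 in both WT libraries only, with a HOMER peak in Dido1∆E16 replicate 2, and Mx2 had 39 and 78 in WT, compared with 32 and 23 in Dido1∆E16 cells. Ifit2, an antiviral RNA-binding protein gene, had scores of 41 and 159 in WT, compared with 69 and 40 in Dido1∆E16 cells. Of 16 cell cycle genes, Cdk4, Ccne1, Cdkn1b, Cdkn2c and E2f1 had a peak in all 4 libraries and Mycn in both WT libraries only (77 and 102). Myc had scores of 54 and 95 in WT and of 26 in Dido1∆E16 replicate 1. The kinase gene Cdk6 had 22 and 38 in WT and 15 in Dido1∆E16 replicate 1. In Dido1∆E16 replicate 2 MACS2 called neither promoter, while HOMER called a peak at both. Of 20 genes that the study named from these accessibility data or followed by RT-qPCR, 8 had a promoter peak in all 4 libraries and 6 (Runx1, Ikzf2, Tcf12, Il7r, Foxo1 and Mycn) in both WT libraries only, beside 5.90% of all genes. HOMER called a peak in both Dido1∆E16 libraries at Ikzf2, in replicate 2 at the Mycn region of both WT libraries, and in neither at Tcf12. Since the study chose these genes on the same libraries, the count of 6 is not independent evidence of its direction.

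The X chromosome lay outside the range of the autosomes. Of 344 promoter regions on X held by both WT libraries, 106 (30.8%) had no Dido1∆E16 promoter peak, against 14.6% on the autosomes (1348 of 9236), where single chromosomes ranged from 11.6% to 17.9%. Dido1∆E16 replicate 1 held 65.4% of the X regions, against 71.7% to 80.3% of the regions of each autosome, and replicate 2 held 51.2%, against 73.2% to 82.8%. Replicate 2 has Y-linked peaks and replicate 1 does not. The WT score percentiles were alike, with medians of 69.9 and 85.1 on X and 70.4 and 86 on the autosomes, and between the 60th and 80th percentiles 30.5% of the X regions and 10.2% of the autosomal regions had no Dido1∆E16 peak.

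Among all promoter peaks, X held 3.62% and 3.67% in WT replicates 1 and 2, compared with 2.99% and 2.33% in Dido1∆E16 replicates 1 and 2, without overlap between the genotypes. With lists of equal length the shares were 3.55% and 3.42% against 2.99% and 2.46%, and with HOMER peaks 3.32% and 3.49% against 2.94% and 2.22%. Rps4x, a ribosomal protein gene on X, was among the regions of both WT libraries only (27 and 71). Of the libraries with Y-linked peaks, the WT one had 3.62% and the Dido1∆E16 one 2.33% of its promoter peaks on X, and of those with Xist peaks, 3.67% and 2.99%. On the autosomes alone, 1348 regions were held by both WT libraries and neither Dido1∆E16 library.

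**Figure D5:**
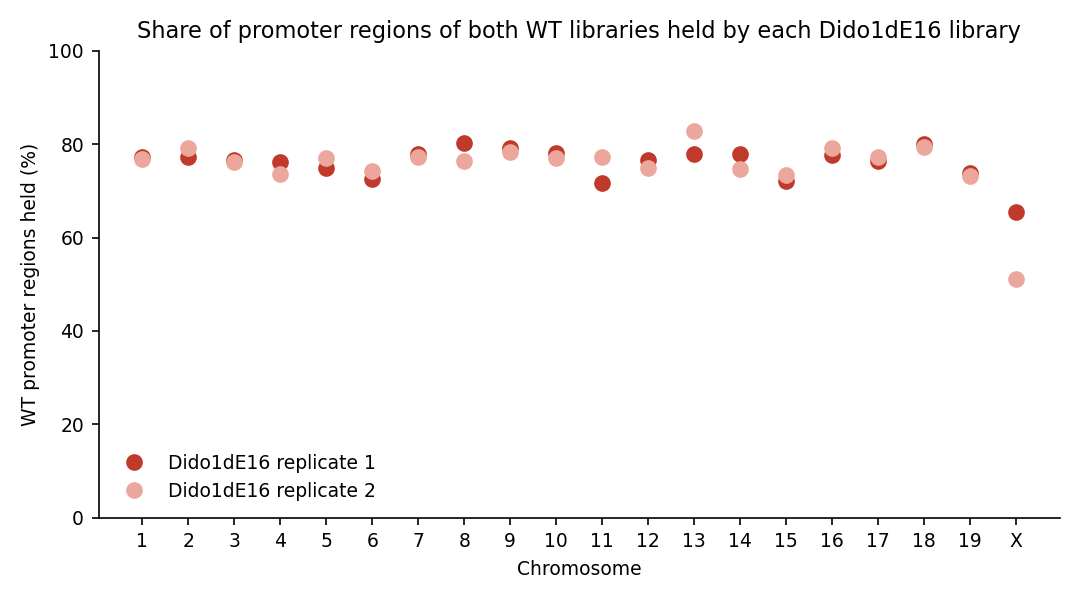
Percent of the promoter regions of both WT libraries that each Dido1∆E16 library holds (vertical axis), by chromosome (horizontal axis). On the 19 autosomes the points lie between 71.7% and 82.8%, and on X at 65.4% and 51.2% in replicates 1 and 2.

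Scores were compared between the genotypes at the 9072 merged regions in which all 4 libraries had a peak of any annotation. Of these, the 6727 with a promoter peak in at least 1 library are called promoter regions here. Before normalization the Dido1∆E16 scores were lower. Over all 9072 regions the median log2 scores were 5.93 and 7.16 in WT replicates 1 and 2. They were 5.67 and 5.32 in Dido1∆E16 replicates 1 and 2, and the difference between the genotype means of these library medians was -1.05. At the 6727 promoter regions the median of the unnormalized log2 differences was -0.977. After quantile normalization, limma called 2 of 6727 promoter regions, 1 in each direction, where a call needed a log2 difference of 1 or more in size and an adjusted p under 0.05. Over all 9072 regions of any annotation 0.463% passed as higher and 0.0110% as lower in Dido1∆E16 cells, and 41 of the 42 higher ones lay outside promoters. Without the adjustment, 171 promoter regions (2.54%) were higher and 154 (2.29%) lower at a p under 0.05, beside 10.2% and 9.59% of the regions outside promoters. With median-centring, 215 promoter regions were higher and 109 lower at that p, and without normalization 1 and 185. After quantile normalization the median log2 difference of the promoter regions was 0.02 (quartiles -0.24 and 0.29) and the median standard error 0.402.

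The called promoter region with higher score in Dido1∆E16 cells was that of Oasl1 (chr5:114921810-114922684), an interferon-induced gene of the oligoadenylate synthetase family. Its scores were 79 and 262 in WT replicates 1 and 2, compared with 368 and 384 in Dido1∆E16 replicates 1 and 2, without overlap between the genotypes. The normalized log2 difference was 1.89 ± 0.28 (SE, n = 2 per genotype, limma adjusted p = 0.00172). The region lies upstream of the annotated start and does not hold it.

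The called region with lower score was the promoter of Cpe (chr8:64692585-64693350), which encodes carboxypeptidase E, a processing enzyme of peptide hormones. Its scores were 132 and 280 in WT and 31 and 28 in Dido1∆E16 cells, so both Dido1∆E16 values lay far below both WT values. The normalized log2 difference was -1.72 ± 0.36 (SE, n = 2 per genotype, limma adjusted p = 0.0205). Neither call was made when any library was left out. Without a trend in the variance, 0 promoter regions were called. The same held without normalization and with the libraries of like Y-linked peaks as a block, both chosen after seeing the data. With the promoter regions fitted alone, Oasl1 was called and Cpe was not.

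None of the lists held a called promoter region. The medians of the normalized log2 difference were -0.01 for 6 regions of stem cell factors, -0.04 for 4 of the surface receptors, -0.43 for 4 of erythroid and megakaryocyte genes, -0.26 for 2 of B lineage genes, -0.00 for 3 of myeloid genes, 0.23 for 8 of PRC2 subunits, 0.10 for 10 of interferon-stimulated genes, 0.03 for 13 of p53 targets, 0.03 for 5 of cell cycle genes, 0.08 for 9 of the genes named by the study, -0.09 for 25 of proteasome subunits and 0.05 for 52 of ribosomal protein genes, beside 0.02 for all promoter regions. The single regions of the T and NK list (Gata3) and of the developmental factors (Isl1) had differences of -0.41 and -0.30. At Meis1, whose Dido1∆E16 scores lay below both WT scores, the normalized difference was -0.15 (limma adjusted p = 0.971).

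RNA of pre-B cells, a later B lineage stage sorted from bone marrow, was read by promoter class. The exon of the deletion (chr2:180657963-180662583) had a coverage of 15.3 and 10.2 in the WT libraries, versus 0.192 and 0.0390 in the Dido1∆E16 libraries, so it was low in both libraries labelled Dido1∆E16, while the other exons of this transcript had medians between 18.5 and 30.1. A mean TPM of at least 1 was reached by 92% of the genes with a promoter peak in all 4 LSK libraries, 62.6% of those with another pattern, 54.5% of those with one in both WT libraries only and 13% of those with none. The median TPM of the genes of all 4 libraries was 35.3 and 31.1 in WT and 35.1 and 33.3 in Dido1∆E16 replicates 1 and 2. For the genes of both WT libraries only it was 1.12 and 0.823 in WT and 2.54 and 2.69 in Dido1∆E16 cells, so both Dido1∆E16 libraries lay above both WT libraries. The same was seen for the genes of other patterns, with 6.37 and 5.56 in WT, compared with 8.53 and 8.15 in Dido1∆E16 cells.

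Of 702 genes with a promoter peak in both WT libraries only and a mean TPM of at least 1, limma called 0 (adjusted p under 0.05, fold change of 0.6 or more on the log2 scale in either direction), with 81 higher (11.5%) and 36 lower (5.13%) at an unadjusted p under 0.05. Over all genes the shares were 8.67% and 3.02%, and among genes with no promoter peak 22.9% and 3.04%. The median log2 fold change was 0.10 for the genes of both WT libraries only, beside 0.07 for all genes. These medians were 0.04 and 0.005 without WT pre-B replicate 2, and 0.159 and 0.145 without WT pre-B replicate 1. Of 6248 genes with a peak in all 4 libraries, 1 was called higher (Ndufa5) and 3 lower (Lamtor1, Mrpl42 and Smim11), and over all 11783 genes tested 0.0255% were called in each direction. Lamtor1, a scaffold of mTORC1 at the lysosome, had 90 and 102 TPM in WT, versus 4.90 and 4.33 in Dido1∆E16 cells (log2 fold change of TPM + 1 -4.11 ± 0.18 SE, limma adjusted p = 0.0354). The calls among the genes of all 4 libraries were not stable, since 0 were made with a pseudocount of 0.1, without the filter on low TPM, or without any of 3 of the libraries in turn, whereas 32 higher and 0 lower genes were called without the remaining one, Dido1∆E16 replicate 2, and 17 higher and 5 lower without a trend in the variance. Among the genes of both WT libraries only, 16 higher and 0 lower were called without Dido1∆E16 replicate 2, and 12 higher and 3 lower without a trend. Ndufa5, a subunit of respiratory complex I, was listed at 0 in both WT libraries and at 83 and 81.7 TPM in Dido1∆E16 cells, whereas Mrpl42 and Smim11 were listed at 0 in both Dido1∆E16 libraries. Such zeros at genes used in every cell can be failed estimates of the transcript assembly, and this was not tested.

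Of the genes with a promoter peak in both WT libraries only, Sumf2 had 15.7 and 14.2 TPM in WT pre-B cells and 1.53 and 0 in Dido1∆E16 pre-B cells (limma adjusted p = 0.216). Il7r had 442 and 313 TPM in WT, versus 468 and 392 in Dido1∆E16 cells, and Foxo1 had 303 and 393 in WT and 298 and 301 in Dido1∆E16 cells, neither of which passed the test (limma adjusted p = 0.765 and 0.693). Mlf1, Tph2 and Cpe were listed at 0 in all 4 RNA libraries. Myeloid genes were measured beside these values as other cells that the sort could hold. The summed TPM of 21 of them was 927 and 3007 in WT and 1897 and 10762 in Dido1∆E16 replicates 1 and 2, led by S100a9 (72.8 and 699 in WT, 353 and 2612 in Dido1∆E16 cells). The median log2 fold change of these 21 genes was 1.86, positive at 19. Of 16 erythroid and megakaryocyte genes, 14 were in the RNA tables, with a summed TPM of 177 and 151 in WT, compared with 203 and 306 in Dido1∆E16 cells, Tfrc the most abundant (135 and 110 in WT, compared with 104 and 67.9) and Epor, Pf4 and Car1 listed at 0. Their median log2 fold change was 1.95, positive at 7 of the 8 that passed the TPM filter. Xist was at 0 and 37.3 TPM in WT replicates 1 and 2, compared with 31.6 and 36.0 TPM in the Dido1∆E16 pair, and the Y-linked Ddx3y at 37.3 and 0 against 10.1 and 0, so that Dido1∆E16 replicate 1 held both RNAs. The part of these markers in the RNA of the promoter classes was not tested, and in such bulk samples more cells of a type and more RNA per cell cannot be told apart.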

How the data were processed

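Omni-ATAC-seq peaks of 2 WT and 2 Dido1∆E16 LSK libraries were analysed, with RNA-seq of 2 WT and 2 Dido1∆E16 pre-B libraries beside them. Per the labels and methods, the authors aligned reads to GRCm38/mm10 (Bowtie2, BWA-MEM 0.7.15), removed duplicates, and ran MACS2 and HOMER on each library, with annotation by ChIPseeker. Each deposited MACS2 peak has a score, a whole number of at least 10, and the HOMER score is 1 throughout. How the score was scaled is not given in the sources used here. The authors' deposited lists of differential regions give tag totals and log2 tag counts per library, and their own fold changes, ratios and p-values were not used. For RNA the deposited StringTie files hold TPM per transcript and coverage per exon. No read counts were used here.

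Peaks were merged from 1 bp of overlap (Python 3.11.15), with the highest score of a library's peaks in a region. Scores were log2-transformed, quantile-normalized and fitted with limma 3.58.1 (R 4.3.3, trend, no block) on the 9072 regions scored in all 4 libraries. RNA was summed per gene as log2(TPM + 1), with a mean TPM of at least 1. Benjamini-Hochberg adjustment ran over all features of a fit. The score fit was tested on simulated data, and no simulation was made for the RNA fit.

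A gene had a promoter peak where a peak named it or overlapped its RefSeq start window (GRCm38.p6), and 12669 of 12682 symbols matched. Genes were named by list, by rank of score percentile among shared and WT regions, or by a call. Sequences with more than 30 bases in an exon were not shown. Some list members are not reported here. The members, gene lists and motifs were chosen with earlier results of these data known.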

Additional observations from a re-analysis of the deposited data

How the results depend on the processing

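With 2 libraries per genotype, no permutation test could pass 0.05, and peak lists without read counts give neither intervals nor the smallest difference that depth allows. The peak counts moved with the peak lists. Regions of both WT libraries without a Dido1∆E16 peak numbered 734 with HOMER peaks, 170 with equal numbers of best-scoring peaks and 1539 to 4270 without 1 library, where the highest value belongs to WT replicate 2 alone. Alternatives chosen after seeing the data gave 678 (no peak of either program), 2394 (libraries with Y-linked peaks) and 5349 (libraries with Xist peaks). Regions of both Dido1∆E16 libraries without a WT peak numbered 0 with peaks of any annotation, 1 with HOMER, 406 with equal numbers, 1 with the better 50% of each list and 3 to 135 without 1 library, the highest without WT replicate 2. Regions of all 4 libraries numbered 3720 with the better 50% and 6442 to 7294 without 1 library. The difference in the number of promoter peaks turned from -3635 to 818 with equal numbers and stayed between -5252 and -2018 without 1 library. Median width (-268 to -46.5 bp) and median score (-45.5 to -4.50) kept their direction without each library. The causes of these shifts were not tested.

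For scores, 2 promoter regions were called, 1 with promoter regions alone, and 0 without a trend, without normalization, without each library, or with the libraries of like Y-linked peaks as a block (the last and the unnormalized fit were chosen after seeing the data). The replicate number as a block gave 4 (adding Tmed2 and Dcaf12l1), although libraries of the same number deviated with correlations of -0.059 (scores) and 0.05 (RNA) and so share only a number, with no pairing. Where 1 library was left out, the lone one was assumed to vary like the others. Of 13 alternatives, Oasl1 passed in 6 and Cpe in 5, with differences of the same sign in all. For RNA, the genes called among those with a promoter peak in all 4 libraries numbered 0 with a pseudocount of 0.1, without a filter or with the block, 22 without a trend and 0 to 32 without 1 library. Among those of both WT libraries only they numbered 15 without a trend and 0 to 16 without 1 library, the highest in both cases without Dido1∆E16 replicate 2.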
